A study of Homo sapiens with 9 samples.

Results

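The 10 genes described here encode MAP kinase phosphatases (DUSP4, DUSP5, DUSP6, DUSP7, DUSP10 and DUSP14), Sprouty proteins (SPRY2 and SPRY4) and Sprouty-related proteins (SPRED1 and SPRED2). They were matched by Ensembl identifier among the 60308 identifiers of the count files, and all 10 were found and were among the 18435 genes with enough reads to test. Total RNA was sequenced with strand kept and with paired reads of 75 bases in 9 cultures of MCF10A, an immortalised human breast epithelial line, with 3 cultures in each of 3 groups. Every culture, controls included, carried MYC from pBABE-hygro-MYC, the H1047R form of PI3K from pMN-IRES-GFP-PI3KH1047R and a hairpin in the doxycycline-inducible vector pLKO-tetON-puro. The groups were a scrambled hairpin (shSCR) and a pair of hairpins, shG9a_1 and shG9a_4, targeting EHMT2, which encodes the histone methyltransferase G9a. All cultures received 2 µg/mL doxycycline for 72 hours and grew with 5% horse serum, 10 µg/mL insulin and 0.02 µg/mL EGF, a ligand that activates the RAS-ERK pathway. The design therefore compares G9a hairpins only in cells that already held MYC and mutant PI3K. No group without these constructs, without doxycycline or without EGF was analysed here.

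Receptor tyrosine kinases activate RAS, which switches on the kinases RAF, MEK and ERK in turn. ERK then raises the transcription of several of its own inhibitors, so the mRNA levels of these genes are widely read as a record of recent ERK output. The dual-specificity phosphatases remove the activating phosphates from MAP kinases, whereas Sprouty and SPRED proteins act upstream, at the receptor adaptors and at RAS.

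The sequences around the start sites of DUSP6, SPRY4 and SPRY2 are shown because DUSP6 and the Sprouty genes are common readouts of ERK output and because these promoters differ in the factor motifs they hold. RefSeq promoters of GRCh38.p14, from 250 bases before to 50 bases after a start site, were found for 8 of the 10 genes (12 promoters). DUSP4 and DUSP5 had no entry. Each sequence is written 5′ to 3′ on the strand of the gene, which is the minus strand for all 3, at chr12:89352452-89352751 for DUSP6, chr5:142324198-142324497 for SPRY4 and chr13:80341077-80341376 for the first promoter of SPRY2. Capitals mark matches to the motifs listed in the next paragraph.
DUSP6: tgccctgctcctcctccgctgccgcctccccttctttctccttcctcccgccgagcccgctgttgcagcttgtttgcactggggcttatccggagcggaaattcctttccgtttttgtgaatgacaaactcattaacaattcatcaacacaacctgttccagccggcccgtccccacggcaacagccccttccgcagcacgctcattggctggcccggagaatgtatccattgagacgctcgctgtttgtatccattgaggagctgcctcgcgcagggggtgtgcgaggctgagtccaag
SPRY4: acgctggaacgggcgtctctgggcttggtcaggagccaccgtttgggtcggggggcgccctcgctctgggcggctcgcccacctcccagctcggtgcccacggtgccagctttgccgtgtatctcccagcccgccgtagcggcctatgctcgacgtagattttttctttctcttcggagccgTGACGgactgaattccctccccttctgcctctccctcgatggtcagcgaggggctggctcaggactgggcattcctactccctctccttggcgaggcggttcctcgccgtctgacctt
SPRY2 promoter 1: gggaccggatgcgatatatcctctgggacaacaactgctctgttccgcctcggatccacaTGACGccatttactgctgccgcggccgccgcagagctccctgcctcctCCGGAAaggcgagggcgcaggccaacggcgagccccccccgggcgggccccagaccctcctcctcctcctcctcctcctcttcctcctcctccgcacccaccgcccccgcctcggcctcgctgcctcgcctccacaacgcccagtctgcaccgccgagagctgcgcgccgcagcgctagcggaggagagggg

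Both strands were searched for CCGGAA (a site that extends the GGAA core bound by ETS factors) and CACGTG (the E-box bound by MYC). The search also took in TGACG (part of the CREB site), TGANTCA (the AP-1 site) and the CArG box of serum response factor. The first SPRY2 promoter held CCGGAA at position -142, counted from the start site, and 17.2% of all 35116 promoters of this length hold that motif. SPRY2 also held TGACG at -190 and SPRY4 held it at -68, against 24.6% of all promoters. The letters of none of the 5 motifs occur in the DUSP6 window, although the shorter GGAA does. CACGTG, present in 7.26% of all promoters, was in none of the 12 windows, and neither was the CArG box (1.29%). The other matches were TGACG in the second DUSP10 promoter and the first SPRED2 promoter, and TGANTCA, held by 7.71% of all promoters, at 2 places in the second SPRED2 promoter. A match is a description of the letters and does not show that a factor is bound.

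The libraries held 53065611 to 76958831 reads assigned to genes on the reverse strand. Expression levels are given as CPM, counts divided by library size, with edgeR's TMM factors applied between libraries. EHMT2, the target of the hairpins, was measured at 45.2 to 51.1 CPM with shSCR, 17.6 to 22.6 with shG9a_1 and 27.2 to 33.5 with shG9a_4, with no overlap between groups. Its log2 fold change was -1.21 for shG9a_1 (edgeR's quasi-likelihood test, adjusted p = 0.00766) and -0.61 for shG9a_4 (adjusted p = 0.259), which did not pass the threshold of 0.05. In DESeq2 the adjusted p of EHMT2 for shG9a_4 was 0.000701, which passed it. Of the markers checked, basal breast epithelial genes summed to 4224 to 7036 CPM over the 9 libraries, whereas leukocyte markers summed to at most 0.147 CPM and endothelial markers to 1.40 to 2.99 CPM. The endothelial sum covers 4 genes, since PECAM1, also on that list, was not matched by symbol. Fibroblast markers summed to 140 to 422 CPM, nearly all of it from DCN, the gene of the matrix protein decorin. RNA was extracted from whole cultures, so fewer cells of a type and less RNA per cell cannot be told apart.

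All 10 genes were expressed. Per length of exon, as CPM per kilobase (RPKM), mean levels over the 9 libraries were 15.5 for DUSP6, 15.5 for DUSP14, 13.3 for SPRED1, 12.6 for DUSP4, 6.97 for SPRY4, 6.59 for DUSP5, 6.53 for SPRY2, 4.32 for DUSP7, 3.10 for SPRED2 and 1.64 for DUSP10. Neighbours in that order had overlapping ranges except at 3 steps, from DUSP4 to SPRY4, from SPRY2 to DUSP7 and from SPRED2 to DUSP10. The cytoplasmic ERK phosphatase DUSP6 and the small phosphatase DUSP14 had the highest mean levels per length. However, their ranges overlapped each other and those of SPRED1 and DUSP4. DUSP10, a phosphatase of p38 and JNK, had the lowest mean level per length. Over the 9 libraries DUSP14 varied least, with a coefficient of variation of 6.24% and a highest level 1.24 times the lowest. DUSP10 varied most, with a coefficient of variation of 28.96% and a ratio of 2.07.

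**Figure D1:**
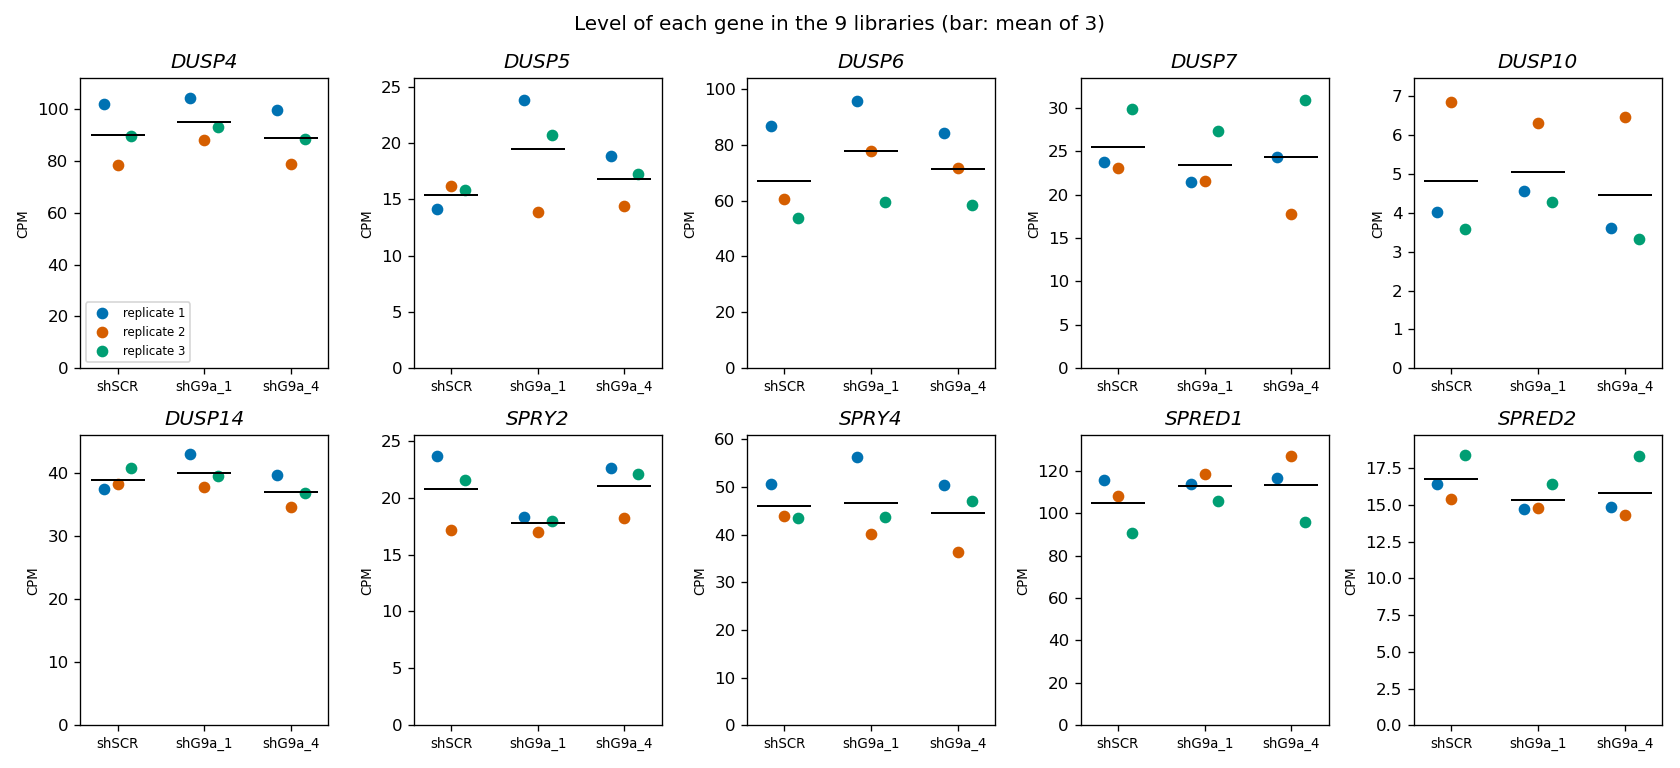
Level of each of the 10 genes in TMM-scaled CPM (y axis, from 0) in the 3 cultures of each hairpin group (x axis); points are libraries coloured by replicate number and bars are means of 3. The groups overlap for every gene, and for DUSP6 replicate 1 is the highest and replicate 3 the lowest library in each group, from 53.7 to 95.8 CPM.

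The first question was whether lowering EHMT2 changed these inhibitors. No gene of the 10 was called with either hairpin at an adjusted p of 0.05 in edgeR's quasi-likelihood test, where 0.038% of all 18435 genes were called for shG9a_1 and 0.0271% for shG9a_4. None was called either for the mean of both hairpins (0.0488% of genes) or between shG9a_4 and shG9a_1 (0% of genes). At an unadjusted p under 0.05 none of the 10 passed in any of these 4 comparisons, against 7.5%, 2.38%, 4.74% and 4.09% of all genes in that order. DESeq2 called none of them either, beside 0.429%, 0.119%, 0.239% and 0.0325% of all genes. With the replicate number as a block, edgeR again called 0 of the 10, beside 0.776%, 0.0759%, 0.184% and 0% of all genes. At an unadjusted p under 0.05 in that block fit, 2 of the 10 passed for shG9a_1, DUSP6 and SPRY2 (13.3% of all genes), 0 for shG9a_4 (4.9%), 1 for the mean of both, DUSP6 (9.56%), and 1 between the hairpins, SPRY2 (8.78%). For each of the 10 the groups overlapped in all 4 comparisons, beside groups without overlap in 14.7%, 6.43%, 2.58% and 9.17% of all genes. Shares of this size leave room for few such genes among 10, so their absence does not set the 10 apart. Compared within a replicate number, 5 of the 10 differed from shSCR in the same direction in all 3 pairs for shG9a_1, DUSP4 and DUSP6 higher and DUSP7, SPRY2 and SPRED2 lower, beside 39.1% of all genes. For shG9a_4 this held for 3 of the 10, SPRED1 higher and DUSP10 and SPRED2 lower, beside 25% of all genes. Both counts are near the share over all genes.

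Of the inducible nuclear phosphatases, DUSP4, which acts on ERK, JNK and p38, was measured at 102, 78.6 and 89.7 CPM with shSCR (replicates 1, 2 and 3), 104, 88.2 and 93.0 with shG9a_1 and 99.7, 78.8 and 88.6 with shG9a_4. Replicate 1 was the highest and replicate 2 the lowest library in every group, and the groups overlapped. The log2 fold change was 0.08 for shG9a_1 (95% interval -0.17 to 0.32) and -0.02 for shG9a_4 (-0.26 to 0.23). DUSP5, the nuclear phosphatase specific to ERK, was measured at 14.2, 16.1 and 15.8 CPM with shSCR, 23.8, 13.9 and 20.7 with shG9a_1 and 18.8, 14.4 and 17.3 with shG9a_4. Replicates 1 and 3 of shG9a_1 lay above every shSCR library and replicate 2 lay below all of them. The log2 fold change was 0.34 ± 0.18 (SE, 95% interval -0.05 to 0.73, adjusted p = 0.717 in edgeR's quasi-likelihood test) for shG9a_1 and 0.13 (-0.26 to 0.52) for shG9a_4. With 1 library left out, the value for shG9a_1 ranged from 0.17 without shG9a_1 replicate 1 to 0.53 without shG9a_1 replicate 2, and DUSP5 was not called in any of these fits.

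DUSP6, the cytoplasmic ERK phosphatase, is among the transcripts most often used to follow ERK output. It was measured at 86.6, 60.5 and 53.7 CPM with shSCR, 95.8, 77.7 and 59.6 with shG9a_1 and 84.2, 71.7 and 58.5 with shG9a_4. Every group had its highest level in replicate 1 and its lowest in replicate 3, and the spread within a group exceeded the difference between group means of 66.9 ± 17.4, 77.7 ± 18.1 and 71.5 ± 12.8 CPM (SD, n = 3 each). DUSP6 had a log2 fold change of 0.21 (95% interval -0.24 to 0.66) for shG9a_1 and 0.09 (-0.36 to 0.55) for shG9a_4. With 1 library left out, the value for shG9a_1 ranged from 0.04 without shG9a_1 replicate 1 to 0.44 without shSCR replicate 1. Within a replicate number, the log2 ratios of DUSP6 in shG9a_1 to shSCR were 0.15, 0.36 and 0.15. With the replicate number as a block, its log2 fold change for shG9a_1 was 0.22 (95% interval 0.07 to 0.36), with an unadjusted p of 0.00744 and an adjusted p of 0.169 in edgeR's quasi-likelihood test, so it was not called. DUSP7, a related cytoplasmic ERK phosphatase, was measured at 23.7, 23.0 and 29.8 CPM with shSCR, 21.4, 21.6 and 27.3 with shG9a_1 and 24.3, 17.8 and 30.8 with shG9a_4. Replicate 3 was the highest library in all 3 groups, unlike for DUSP6. Its log2 fold changes were -0.12 (95% interval -0.53 to 0.28) and -0.07 (-0.48 to 0.33).

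DUSP10, which acts on JNK and p38 rather than on ERK, was measured at 4.03, 6.86 and 3.58 CPM with shSCR, 4.57, 6.30 and 4.27 with shG9a_1 and 3.60, 6.46 and 3.32 with shG9a_4. Replicate 2 was the highest library in each group. The log2 fold change was 0.06 for shG9a_1 and -0.12 for shG9a_4, and the latter had the widest interval of the 10 genes in the fit without a block, from -0.78 to 0.55. DUSP14, which lacks the kinase-binding domain of the larger MAP kinase phosphatases, stayed between 34.7 and 43.0 CPM in all 9 libraries. Its intervals were the narrowest in the fit without a block, with log2 fold changes of 0.04 (-0.13 to 0.22) for shG9a_1 and -0.07 (-0.24 to 0.11) for shG9a_4. With the replicate number as a block, DUSP4 had the smallest standard error for shG9a_1, at 0.06, and DUSP5 the largest, at 0.14.

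SPRY2, an inhibitor that binds receptor adaptors, was measured at 23.7, 17.2 and 21.6 CPM with shSCR, 18.3, 17.0 and 18.0 with shG9a_1 and 22.6, 18.3 and 22.1 with shG9a_4. The shG9a_1 libraries lay close together, and replicate 2 of shG9a_1 lay below the whole shSCR range. Its log2 fold change of -0.23 ± 0.13 (SE, 95% interval -0.51 to 0.05) for shG9a_1 had an adjusted p of 0.741 in edgeR's quasi-likelihood test, and with 1 library left out it ranged from -0.35 without shSCR replicate 2 to -0.12 without shSCR replicate 1. For shG9a_4 it was 0.01 (-0.26 to 0.29). The difference between shG9a_4 and shG9a_1 was 0.24 (-0.04 to 0.52, adjusted p = 1.00 in edgeR's test), so SPRY2 was not shown to differ between the hairpins. With the replicate number as a block, SPRY2 had an unadjusted p of 0.0275 for shG9a_1 against shSCR in edgeR's test (adjusted p = 0.288). Between the hairpins the unadjusted p in edgeR's test was 0.0190 (adjusted p = 0.473). The 95% intervals in that fit were -0.41 to -0.03 and 0.05 to 0.42, so neither spanned 0, but SPRY2 was not called.

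SPRY4, an inhibitor of RAS activation that ERK signalling induces, was measured at 50.7, 44.0 and 43.5 CPM with shSCR, 56.4, 40.1 and 43.7 with shG9a_1 and 50.3, 36.3 and 47.0 with shG9a_4. Replicate 1 was the highest library in each group. Its log2 fold changes were 0.02 (95% interval -0.30 to 0.34) and -0.05 (-0.36 to 0.27). SPRED1, a membrane protein that brings neurofibromin to RAS, was measured at 116, 108 and 90.7 CPM with shSCR, 114, 119 and 106 with shG9a_1 and 117, 127 and 95.7 with shG9a_4. Replicate 3 was the lowest library in each group, and the log2 fold changes were 0.11 (-0.14 to 0.35) and 0.11 (-0.14 to 0.36). SPRED2, its paralogue, ranged from 14.3 to 18.4 CPM. Its log2 fold changes were -0.13 (-0.39 to 0.13) for shG9a_1 and -0.08 (-0.34 to 0.18) for shG9a_4.

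**Figure D2:**
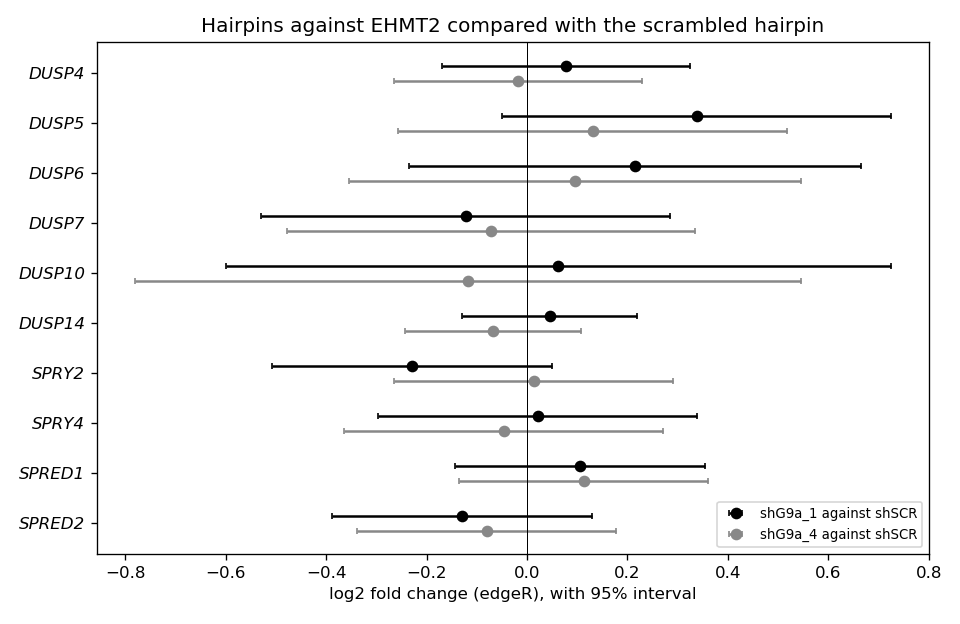
Log2 fold change of each gene (x axis, with 95% intervals) for shG9a_1 and shG9a_4 against shSCR in edgeR without a replicate block. Every interval spans 0, from -0.78 for the lower bound of DUSP10 with shG9a_4 to 0.73 for the upper bound of DUSP5 with shG9a_1. In the fit with a replicate block, the shG9a_1 intervals of DUSP6 (0.07 to 0.36) and SPRY2 (-0.41 to -0.03) did not span 0. Neither gene was called there.

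Over the 10 genes, 7 had a higher and 3 a lower fitted level with shG9a_1, with a median log2 fold change of 0.05 beside 0.001 over all genes tested. With shG9a_4, 4 were higher and 6 lower, with a median of -0.03 beside 0.002. The median size of the log2 fold change, sign left out, was 0.114 for the 10 genes and 0.117 for all genes with shG9a_1, and 0.076 and 0.081 with shG9a_4. Both comparisons use the same 3 shSCR libraries. A missed threshold does not show equal levels, since the standard errors of these log2 fold changes without a block ran from 0.08 for DUSP14 to 0.30 for DUSP10. In the authors' deposited table, the posterior probability of differential expression of the 10 genes was 0.00154 to 0.0153 for shG9a_1 and 0.000211 to 0.00107 for shG9a_4. The smoothed fold changes in the authors' deposited table were 0.847 to 1.25 and 0.921 to 1.09.

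Levels of these genes differed between cultures with different replicate numbers. The sample titles number the cultures 1 to 3 in each group, and no label ties a number to a day, a passage or a sequencing run. Libraries with the same number deviated together from their group means, with a correlation of 0.171 to 0.447 over 9 pairs. The 18 pairs with different numbers had a mean of -0.147 and ran from -0.314 to 0.160, so the ranges nearly met. On average, each of the 9 libraries correlated best with its own number. In an edgeR quasi-likelihood test of the replicate number, with hairpin in the model, 6 of the 10 genes were called, beside 7.47% of all genes tested and 9.39% of the 10454 genes at or above the mean level of DUSP10. The 6 genes were DUSP6 (adjusted p = 0.000654), DUSP10 (0.00265), DUSP4 (0.0126), DUSP7 (0.0216), SPRY4 (0.0314) and SPRED1 (0.0431). SPRY2 (0.104), SPRED2 (0.129), DUSP5 (0.318) and DUSP14 (0.518) were not called. At an unadjusted p under 0.05, 8 of the 10 passed, beside 23.2% of all genes. DESeq2 called the same 6 of the 10, beside 8.91% of all genes. The 10 genes were chosen with earlier results of these data known, so these shares are a description and not a test of excess. With 1 library left out, edgeR called 2 to 7 of the 10. The count was 2 without shSCR replicate 3 or shG9a_1 replicate 3, 3 without shSCR replicate 1 or shG9a_4 replicate 1, and 4 without shSCR replicate 2 or shG9a_4 replicate 3. DUSP6 and DUSP10 were called in 9 of these 9 fits.

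The 6 genes did not move as one group. DUSP6 had means of 88.8 ± 6.11 CPM in the cultures numbered 1, 70.0 ± 8.71 in those numbered 2 and 57.3 ± 3.12 in those numbered 3 (SD, n = 3 hairpins each). Its log2 difference between numbers 3 and 1 was -0.63 ± 0.07 (SE, edgeR's quasi-likelihood test, adjusted p = 0.000478), a fold of 0.645, and no library of one number overlapped another. DUSP4 was highest in number 1 and lowest in number 2, at 102 ± 2.31, 81.9 ± 5.44 and 90.4 ± 2.29 CPM, again without overlap. In 2.19% of all genes the 3 numbers did not overlap, and of the 10 this held for DUSP4 and DUSP6. SPRY4, like DUSP4, had its highest mean in number 1 and its lowest in number 2, at 52.5 ± 3.40, 40.1 ± 3.82 and 44.7 ± 1.97 CPM.

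DUSP10, the JNK and p38 phosphatase, had its highest level in number 2, at 6.54 ± 0.288 CPM, beside 4.07 ± 0.483 in number 1 and 3.72 ± 0.493 in number 3. Its log2 difference was 0.69 between numbers 2 and 1 and -0.82 between numbers 3 and 2 (edgeR's quasi-likelihood test, adjusted p = 0.0117 and 0.00244). DUSP7 had its highest level in number 3, at 29.3 ± 1.79 CPM beside 23.1 ± 1.53 and 20.8 ± 2.70, with a log2 difference of 0.50 between numbers 3 and 2 (edgeR, adjusted p = 0.0116). The related cytoplasmic ERK phosphatases differed in opposite directions between these numbers, with DUSP6 at -0.28 (edgeR, adjusted p = 0.0273). SPRED1 was lowest in number 3, at 97.4 ± 7.69 CPM beside 115 ± 1.49 and 118 ± 9.60, with a log2 difference of -0.28 from number 2 (edgeR, adjusted p = 0.0294).

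Taking the numbers in pairs, edgeR called 4 of the 10 genes between numbers 2 and 1 (1.62% of all genes), namely DUSP4, DUSP6 and SPRY4 lower and DUSP10 higher in number 2. DUSP6 was the 1 gene called between numbers 3 and 1 (4.34% of all genes). Between numbers 3 and 2, 4 were called (8.11% of all genes), with DUSP7 higher and DUSP6, DUSP10 and SPRED1 lower in number 3.

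**Figure D3:**
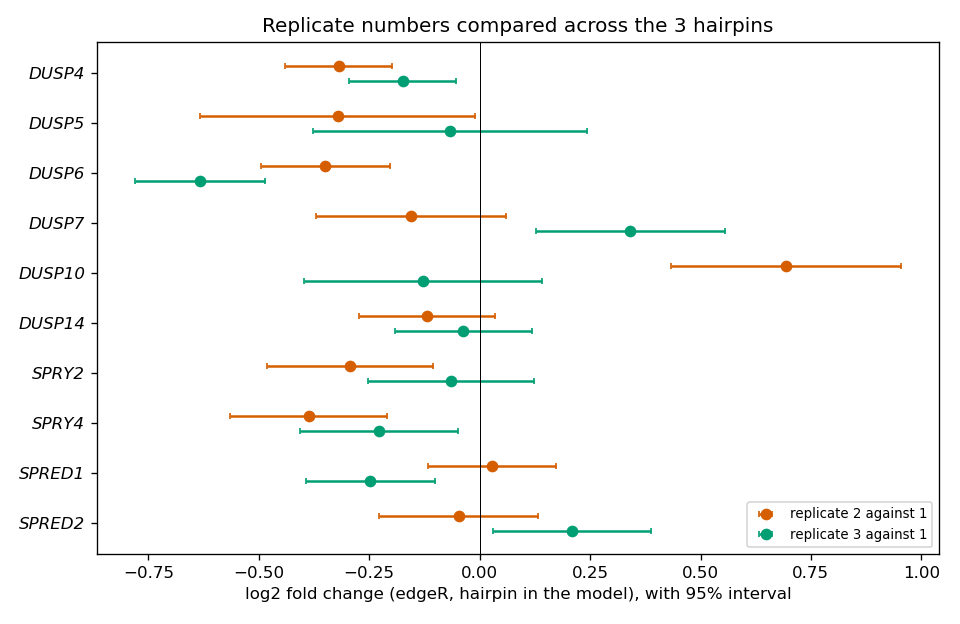
Log2 difference of each gene between replicate numbers 2 and 1 and between 3 and 1 (x axis, with 95% intervals) in edgeR with hairpin in the model. DUSP6 lies at -0.35 and -0.63, and DUSP10 at 0.69 for number 2 against 1.

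The replicate number took 85.8% of the sum of squares of log2 CPM of DUSP6 over the 9 libraries, 87.2% of that of DUSP4 and 89.5% of that of DUSP10. The median over the 10 genes was 76.3% for replicate number and 11.5% for hairpin, beside 33.9% and 18.8% over all genes tested. All genes tested include many at levels below DUSP10, and these shares were not matched for level. DUSP5 (32.0%) and DUSP14 (33.8%) had the lowest shares for replicate number.

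**Figure D4:**
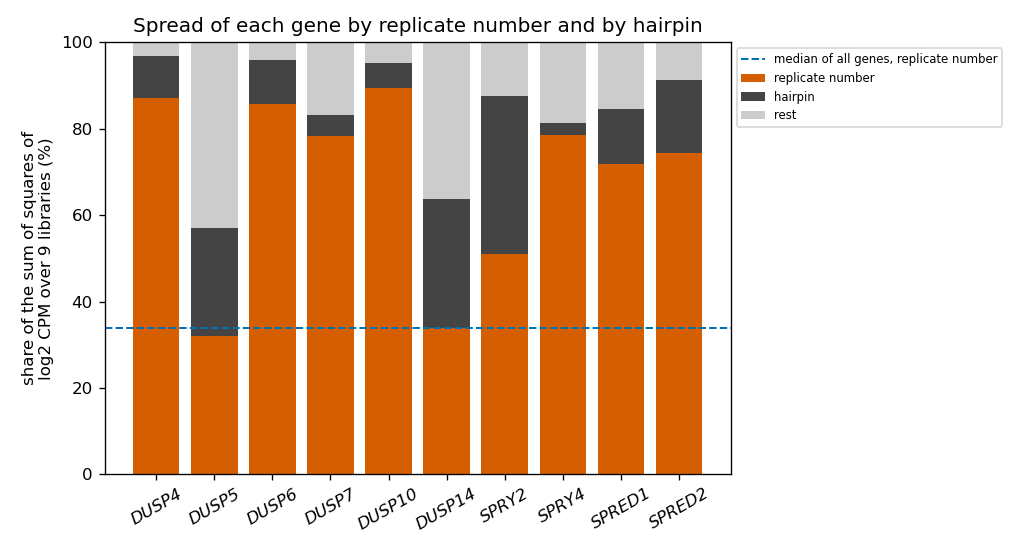
Share of the sum of squares of log2 CPM over 9 libraries (y axis, percent) that lay between replicate numbers, between hairpins and in the rest, for each of the 10 genes. The dashed line is the median share for replicate number over all genes tested, 33.9%, and 8 of the 10 bars for replicate number end well above it.

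Depth and cell markers differed between the replicate numbers as well. Reads in genes were 62486212 to 76958831 in number 1, 63501259 to 76698004 in number 2 and 53065611 to 54477100 in number 3, and unmapped reads were 2.77% to 3.07%, 2.75% to 3.21% and 3.67% to 4.34%. The 8 basal epithelial markers summed to 4645 to 6408 CPM, 4224 to 5165 CPM and 5941 to 7036 CPM in numbers 1, 2 and 3, and 7 of 8 differed by number in edgeR's quasi-likelihood test. The 6 general epithelial markers summed to 1347 to 1677, 1462 to 1990 and 1935 to 2261 CPM, with 3 of 6 called. The cell adhesion gene CDH1 had means of 19.2, 17.0 and 45.0 CPM and EPCAM of 35.3, 21.6 and 58.5 CPM. Means were 174, 185 and 237 CPM for KRT8, 260, 239 and 285 for KRT18 and 1006, 1227 and 1420 for KRT7. CLDN1 had 30.8, 30.8 and 36.2 CPM. The 7 fibroblast markers summed to 280 to 422, 337 to 420 and 140 to 197 CPM, with 2 of the 4 tested called. DCN had means of 329, 381 and 160 CPM and LUM of 5.60, 7.55 and 3.27 CPM, whereas COL1A1 had 1.21, 1.41 and 1.40 CPM and PDGFRB 0.370, 0.633 and 0.499 CPM, so the fibroblast markers did not all have their lowest mean in number 3. The part of depth, epithelial state or any other cell type in the differences of DUSP6, DUSP10 and the other genes was not tested.

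The wider pathway was described with lists of related genes, to be read beside the 7.5% of all genes with an unadjusted p under 0.05 for shG9a_1 and the 2.38% for shG9a_4. Of the 10 other phosphatase, Sprouty and SPRED genes, 0 of 10 were called by edgeR for either hairpin, with 4 and 2 at an unadjusted p under 0.05 for shG9a_1 and shG9a_4. The largest mean differences of both hairpins among them were a log2 fold change of 0.55 for SPRED3, the third SPRED gene, -0.45 for DUSP2, a nuclear ERK phosphatase, and -0.25 for SPRY1. Of 21 genes from receptor and adaptors to ERK, 0 were called for either hairpin, with 2 and 1 at an unadjusted p under 0.05, and the largest values were 0.17 for the adaptor GAB1, 0.17 for the adaptor SHC1 and 0.16 for the kinase BRAF. The 14 JNK and p38 kinases and activators likewise had 0 called, with 2 and 0 unadjusted. The largest values there were 0.27 for the p38 kinase MAPK11, -0.25 for its activator MAP2K6 and -0.12 for the JNK activator MAP2K7.

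Of 25 other ERK-responsive transcripts, 23 were tested and 0 were called for either hairpin, with 2 and 0 at an unadjusted p under 0.05. Their median log2 fold change was 0.08 for shG9a_1 and -0.10 for shG9a_4. The immediate-early factor EGR1 had the largest mean difference of both hairpins at -0.55 ± 0.30 (SE), followed by JUNB at 0.21 and the ETS factor ETV4 at -0.19. Of 14 other negative regulators of receptors and RAS, 0 were called, with 1 and 0 unadjusted, and IL17RD (-0.23) and RASA2 (0.14) were among those with the largest mean differences. DESeq2 called 0 genes of any of these 5 lists for either hairpin.

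By replicate number, where edgeR called 7.47% of all genes and 23.2% had an unadjusted p under 0.05, it called 0 of the 10 other phosphatase and Sprouty genes (2 at an unadjusted p under 0.05), 0 of the 21 ERK pathway genes (4 unadjusted) and 1 of the 14 JNK and p38 genes, the kinase MAP3K5 (adjusted p = 0.0379). Of the 23 ERK-responsive transcripts, 4 were called (14 unadjusted), namely ETV1, EGR1, EPHA4 and ETV4. ETV1, an ETS factor, had means of 40.8, 31.6 and 23.3 CPM in numbers 1, 2 and 3, with a log2 difference of -0.80 between numbers 3 and 1 (edgeR, adjusted p = 0.00171). The order of these means was that of DUSP6. ETV4 had means of 16.4, 12.4 and 12.0 CPM and a log2 difference of -0.44 (edgeR, adjusted p = 0.0446). EGR1 was likewise highest in number 1, at 10.5 CPM beside 5.71 and 5.87, with log2 differences of -0.90 for number 2 and -0.82 for number 3 (edgeR, adjusted p = 0.0100 and 0.0117). The receptor EPHA4 had its highest mean in number 2, at 2.29 CPM beside 1.19 in number 1 and 1.07 in number 3. Its log2 difference was -1.11 between numbers 3 and 2 (edgeR, adjusted p = 0.0270). Of the 23 transcripts, 6 were higher and 17 lower in number 3 than in number 1, where 50.3% of all genes were higher. In number 2, 7 were higher and 16 lower than in number 1 (48.5% of all genes higher). Between numbers 3 and 2 the list was nearly even, with 11 higher and 12 lower in number 3 (50.5% of all genes higher). Of the other negative regulators, ERRFI1, an inhibitor of the EGF receptor, and CBL, a ubiquitin ligase of receptors, were called, 2 of 14. ERRFI1 had a log2 difference of -0.32 between numbers 3 and 2 and CBL of 0.33 (edgeR, adjusted p = 0.0135 and 0.0101). Between the same numbers, the phosphatase DUSP1 differed by -0.23 and EGFR, the EGF receptor itself, by 0.25 (edgeR, adjusted p = 0.0287 and 0.0348), although edgeR called neither in the test over all 3 numbers. DESeq2 called DUSP1, EGFR and the same genes as edgeR, and of the ERK-responsive transcripts also FOS, IER5 and EREG, which made 7 of 23.

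The genes whose log2 CPM followed DUSP6 most closely over the 9 libraries, among 10253 named genes with a mean of at least 5 CPM, were NTPCR (Pearson r = 0.96, Spearman rho = 0.95), CYP1B1 (0.96 and 0.97), CDC14A (0.96 and 0.97), GLRX (0.95 and 0.92) and ACOX2 (0.95 and 0.92). For SPRY4 they were SLC25A18 (0.95 and 0.92), CBR1 (0.95 and 0.83), PPME1 (0.93 and 0.92), FTL (0.92 and 0.85) and SF3B4 (0.91 and 0.97). These values describe 9 libraries that share hairpins and replicate numbers, and no gene was on both lists.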

How the data were processed

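The authors deposited, per the file headers, whole-number counts of reads per Ensembl gene for each of the 9 libraries in STAR's layout (unstranded, sense and reverse strand). Per the submitters' processing notes, the tools include DESeq, edgeR 3.14.0, R 3.3.1 and STAR 2.5.2a and the builds GRCh37 and hg19, none with a stated role. The authors also deposited, per the file headers, a posterior probability (a score from 0 to 1) and a linear fold change (a ratio) for each hairpin against shSCR, without replicate values. Neither the annotation release nor the tool behind that table was given in the sources used here.

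Reads were taken from the reverse-strand column because 94.7% to 95.1% of stranded gene reads lay there. Rows that name no gene stayed out of library sizes and tests. As shares of all reads, reads with no feature were 12.2% to 15.4%, ambiguous reads 2.49% to 2.68%, multimapped reads 4.57% to 5.49% and unmapped reads 2.75% to 4.34%. Symbols were matched for 40308 of 60308 identifiers, which hold 96.97% of the reads. Exon lengths for RPKM came from GENCODE 29 by identifier, and may differ from the annotation used for counting. None of the 9 pairs of libraries within a group agreed within counting noise.

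All 9 libraries were fitted together in edgeR 4.0.16 (R 4.3.3; TMM, filterByExpr, quasi-likelihood test, 6 residual degrees of freedom), with Benjamini-Hochberg adjustment over all 18435 genes tested and a threshold of 0.05. The series' text calls the replicates biological. The block fit adds the replicate number (4 residual degrees of freedom) and also gives the test of that number. The numbers were taken to pair the libraries because each same-number correlation of deviations from the group means was over 0.1. The correlation of shG9a_1 replicate 1 with shG9a_4 replicate 2, which have different numbers, was also over 0.1, at 0.160. DESeq2 1.42.0, other scaling, no filter, unstranded counts and leaving out each library were alternatives. The scripts were tested on simulated data.

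The 10 genes and the pathway and marker lists were chosen with earlier results of these data known. The naming rule takes the 10, EHMT2 and list members past the threshold. It adds the 3 of each list with the largest mean difference of both hairpins at 1 CPM or more. It also adds the 5 genes most like DUSP6 and SPRY4. CDH1, EPCAM, KRT7, KRT8, KRT18, CLDN1, DCN, LUM, COL1A1, PDGFRB, FOS, IER5 and EREG were named after their values were seen. A gene that this rule names is not reported here. Intervals are at 95%.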

Additional observations from a re-analysis of the deposited data

How the results depend on the processing

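No gene of the 10 was called for either hairpin, between the hairpins or for their mean under any alternative. Of 200 log2 fold changes under the alternatives that kept all libraries, 4 changed sign, and the lowest adjusted p was 0.169 (DUSP6, replicate block, edgeR). The 4 were SPRED1 between shG9a_4 and shG9a_1, at 0.01 in the report and -0.0026 with RLE size factors, -0.0026 with DESeq2, -0.0075 with unstranded counts and -0.0016 with the replicate block. Of 360 values with 1 library left out, 53 changed sign, none was called and the lowest adjusted p in edgeR was 0.459.

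For shG9a_1 against shSCR, the log2 fold changes that changed sign with a library left out ranged from -0.13 to 0.41 for DUSP10, from -0.0043 to 0.089 for DUSP14, from -0.0097 to 0.18 for DUSP4, from -0.25 to 0.0043 for DUSP7 and from -0.13 to 0.12 for SPRY4. For shG9a_4 against shSCR, the log2 fold changes that changed sign with a library left out ranged from -0.49 to 0.22 for DUSP10, from -0.11 to 0.082 for DUSP4, from -0.049 to 0.32 for DUSP6, from -0.27 to 0.10 for DUSP7, from -0.12 to 0.12 for SPRY2 and from -0.14 to 0.075 for SPRY4. Between shG9a_4 and shG9a_1, the log2 fold changes that changed sign with a library left out ranged from -0.55 to 0.014 for DUSP10, from -0.28 to 0.055 for DUSP6, from -0.16 to 0.22 for DUSP7, from -0.091 to 0.11 for SPRED1, from -0.071 to 0.11 for SPRED2 and from -0.17 to 0.085 for SPRY4. For the mean of both, the log2 fold changes that changed sign with a library left out ranged from -0.21 to 0.32 for DUSP10, from -0.038 to 0.0201 for DUSP14, from -0.062 to 0.13 for DUSP4, from -0.19 to 0.025 for DUSP7 and from -0.089 to 0.062 for SPRY4. 

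The number of all genes called moved more. For shG9a_1 it was 7 in the report, 79 with DESeq2, 288 with no filter, 143 with the replicate block and 0 to 10 with a library left out. For shG9a_4 it was 5, then 22, 49, 14 and 0 to 7, and 1 with unstranded counts. Between the hairpins it was 0, then 6 with DESeq2 and 106 with no filter, and 0 with the replicate block and with each library left out. For the mean of both it was 9, then 44, 126, 34 and 0 to 11. By replicate number it was 1377, then 2874 with no filter and 435 to 2109 with a library left out. The cause was not tested.

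The count of genes called by replicate number among the 10 was 6 with RLE size factors, DESeq2, no filter and unstranded counts, and 2 to 7 with a library left out. DUSP6 and DUSP10 were called in 9 of 9 of these, DUSP7 in 6, DUSP4 and SPRY4 in 4 each, SPRED1 in 3 and SPRY2 in 1 (edgeR, adjusted p = 0.0305 without shG9a_1 replicate 2). With fewer libraries the residual degrees of freedom also fell. DUSP10, at 3.32 to 6.86 CPM, had the lowest levels of the 10.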
